A study of Homo sapiens with 2 samples.

Results

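The ATP-binding cassette (ABC) transporter genes were taken as every row whose symbol is ABC, a letter from A to G and digits only, which gave 46 of the 57820 genes listed in both tables. They fell into subfamilies ABCA (12 genes), ABCB (9), ABCC (12), ABCD (4), ABCE (1), ABCF (3) and ABCG (5). All but ABCC13, a transcribed pseudogene, are protein-coding in RefSeq. Family members known by other symbols (TAP1, TAP2 and CFTR) and pseudogenes with a P in the symbol are outside this definition. RNA was profiled by poly(A)-selected, stranded RNA-seq in unmodified (WT) cultures of HepG2, labelled hepatocellular carcinoma, and of SKHEP1, a human liver cancer line labelled as endothelial cells, with 1 library per line and the same serum-containing medium for both. No drug, allele or other treatment is given in the labels of either line.

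The libraries held 22477772 expected counts in HepG2 and 19940596 in SKHEP1 after rounding, and 13405 genes in HepG2 and 13831 in SKHEP1 reached 10 counts. All 9 hepatocyte markers (such as ALB and HNF4A) reached 10 counts in HepG2 and 1 of 9, SERPINA1, did in SKHEP1, with a summed level of 65904 CPM (counts scaled to a common library total) in HepG2 and 89.9 in SKHEP1. Of 9 endothelial markers matched, 3 reached 10 counts in HepG2 against 2 in SKHEP1, at a summed 8.16 CPM in HepG2 and 1.78 in SKHEP1. The defining markers KDR, ERG, EMCN and CLDN5 were at 0 counts in both lines, and CDH5 was at 5 counts in HepG2 against 1 in SKHEP1. TIE1, VWF and ESAM had 18, 14 and 144 counts in HepG2 against 10, 4 and 16 in SKHEP1. TEK went the other way, with 0 counts in HepG2 and 5 in SKHEP1. ESAM gave 6.49 CPM of the HepG2 sum. At these levels the markers do not bear out the endothelial label of SKHEP1. Of 5 mesenchymal markers (such as VIM), 0 reached 10 counts in HepG2 and 4 did in SKHEP1. Of 3 cholangiocyte markers 2 did in HepG2 and 3 in SKHEP1, and of 6 blood and immune markers 3 did in HepG2 and 2 in SKHEP1. With a single library per line, a difference between the lines cannot be told apart from one between cultures or libraries. A share of expressing cells and a level per cell cannot be told apart either.

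ABC proteins use ATP binding and hydrolysis to move lipids, bile salts, drugs, peptides, porphyrins or other substrates across membranes. Subfamilies ABCE and ABCF lack membrane-spanning parts and act in translation. In the liver, ABC transporters in the canalicular membrane of hepatocytes drive bile formation, while others in the sinusoidal membrane return solutes to blood. Members in mitochondria, peroxisomes and lysosomes are used by most cell types.

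The ABC genes that differed by a wide margin were mostly higher in HepG2. Of the 46 genes, 32 reached 10 expected counts in at least 1 line and were compared, by the ratio of counts scaled to the effective library size. Among these 32, 10 were past 4-fold toward HepG2, 4 were past it toward SKHEP1, and 18 lay within 4-fold. Over all 15436 genes compared, 13.0% were past 4-fold toward HepG2, 16.5% toward SKHEP1, and 29.5% past 4-fold in either direction. The median log2 ratio, HepG2 over SKHEP1, was 0.96 for the 32 ABC genes and -0.03 for all genes compared. Within 2-fold lay 11 of the 32 ABC genes, against 51.6% of all genes. No test was made, since neither line has a replicate, and the intervals given are exact 95% intervals that cover counting error only. The labels name no molecular identifiers, so reads that are PCR copies are counted again and the intervals may be too narrow.

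**Figure D1:**
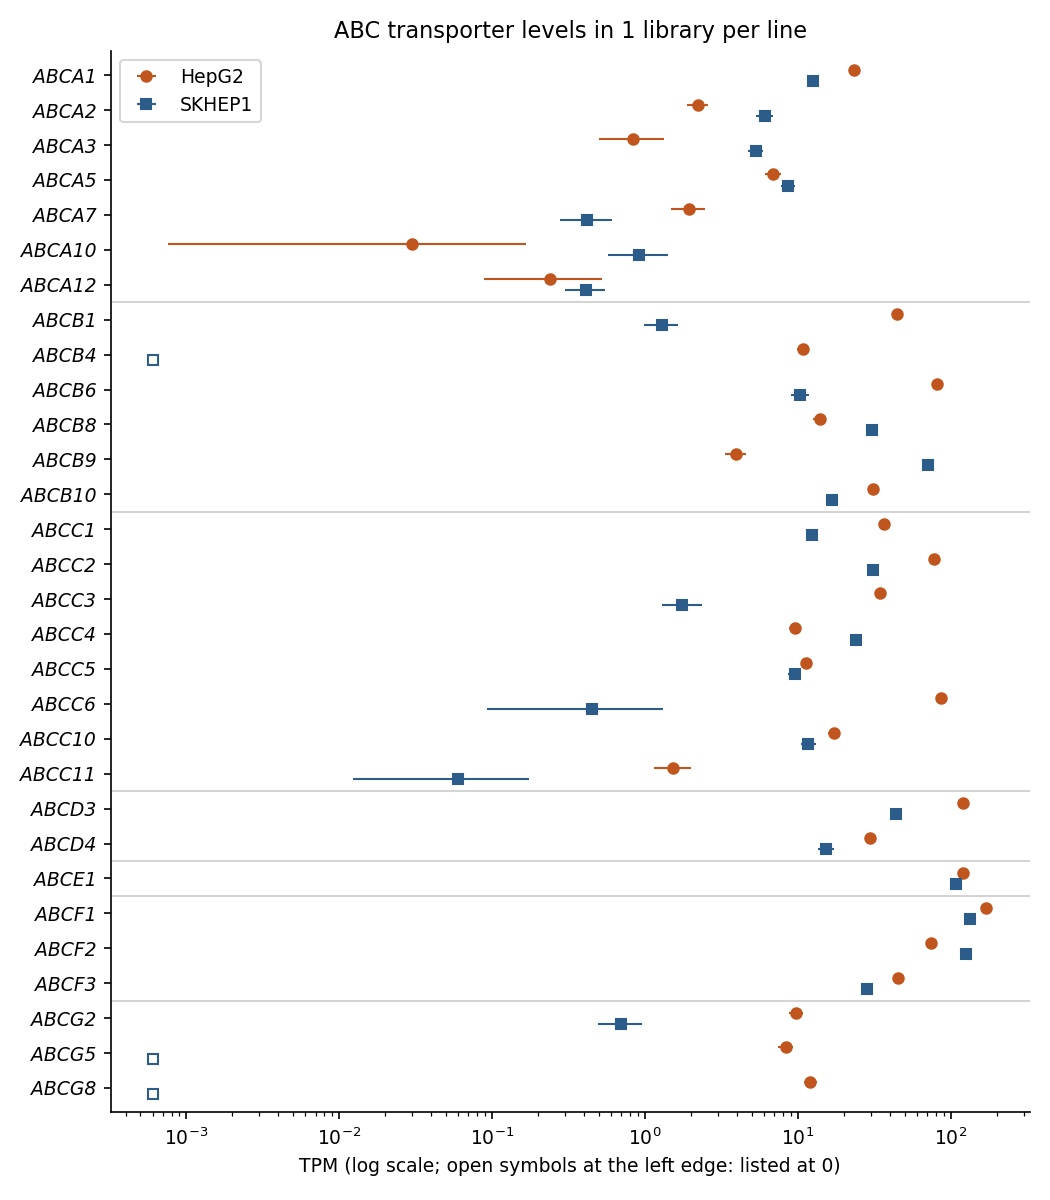
TPM (length-normalised transcript abundance, log axis) of 30 of the 32 compared ABC genes, with HepG2 as circles and SKHEP1 as squares, 1 library each, and 95% Poisson counting intervals. ABCB4, ABCG5 and ABCG8 are listed at 0 in SKHEP1 (open squares), while ABCF1 and ABCE1 are among the first 3 members by TPM in both lines.

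**Figure D2:**
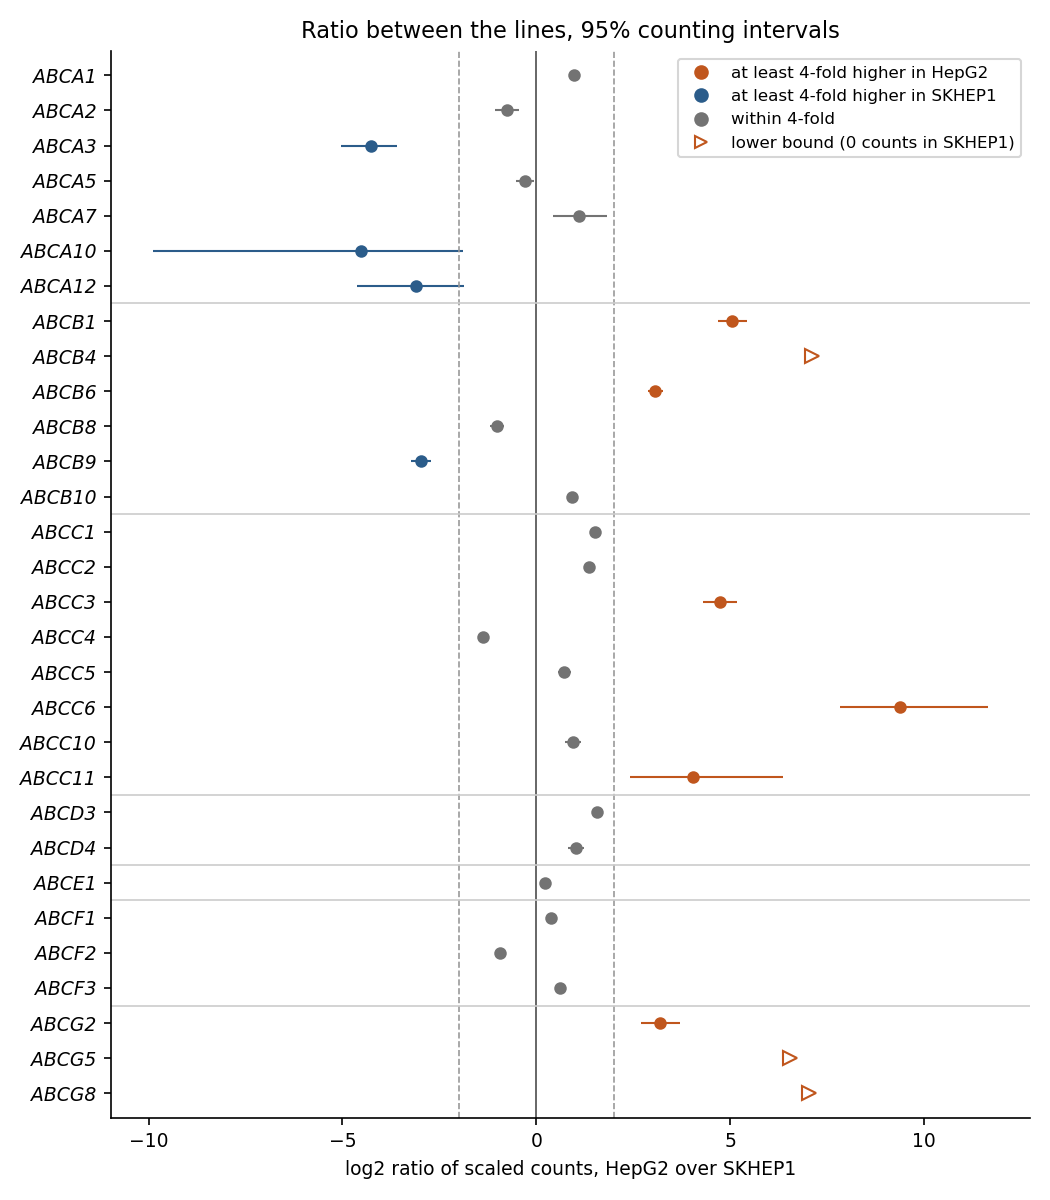
Log2 ratio of scaled counts, HepG2 over SKHEP1, for 30 of the 32 compared ABC genes with exact 95% counting intervals. Dashed lines mark 4-fold, and open triangles are lower bounds where SKHEP1 had 0 counts. Past the dashed lines lie 9 of the plotted genes on the HepG2 side and 4 on the SKHEP1 side.

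The sterol and drug exporters of subfamily ABCG were all past 4-fold toward HepG2 where they could be compared (3 of 5 genes). Over all genes compared this share was 13.0%. ABCG5 and ABCG8 encode the partners of the sterolin heterodimer, which secretes cholesterol and plant sterols into bile. ABCG8 was at 12.1 TPM (431 counts) in HepG2 and at 0 counts in SKHEP1. Its ratio was 131 against a floor of 3 SKHEP1 counts, and at least 106 by the lower limit of the 95% ratio interval. ABCG5 was at 8.32 TPM (306 counts, 95% interval 7.41 to 9.31 TPM) in HepG2 and at 0 counts in SKHEP1. By the lower 95% limit ABCG5 was at least 75.1-fold higher in HepG2. The TPM intervals of the heterodimer partners in HepG2 did not overlap. ABCG2, or BCRP, an exporter of drugs and urate, was at 9.77 TPM (380 counts) in HepG2 and 0.70 TPM (38 counts) in SKHEP1, 9.11-fold higher in HepG2 by scaled counts (6.52 to 13.1) and 14.0-fold by TPM. ABCG1, which moves cholesterol to high-density lipoprotein, had 1 count in HepG2 and 0 in SKHEP1, and its relative ABCG4 had 0 counts in HepG2 against 4 in SKHEP1, too few for a ratio.

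ABCG5 and ABCG8 lie head to head on chromosome 2, and the interval between their starts is shown because both genes were detected in HepG2 and neither in SKHEP1. The sequence comes from RefSeq's promoter windows (build GRCh38.p14, whereas the count tables use hg19), where chr2:43838840-43838970 on the plus strand spans the 131 bases between the listed starts. Capitals mark GATAAG, searched on both strands as a motif of the GATA factors. Here it lies on the minus strand, the strand of ABCG5, and so reads as its reverse complement.
ABCG8/ABCG5 interval: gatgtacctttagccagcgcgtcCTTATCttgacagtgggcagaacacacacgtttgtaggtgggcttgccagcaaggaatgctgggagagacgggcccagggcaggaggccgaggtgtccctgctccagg
The motif GATAAG was found in the 250 bases before the start in 5.65% of all 35116 RefSeq windows, and in 7 of 53 windows of ABC members, those of ABCA6, ABCB1, ABCB10, ABCG2, ABCG5 and ABCG8. The windows of ABCG5 and ABCG8 overlap and share this match. The search covered 35 of the 46 members, some with several windows. A match of letters is a description and does not show a bound site.

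Canalicular exporters as a group showed the same direction, but ABCG2, ABCG5 and ABCG8, counted above under ABCG, are counted again in this group. Of 7 listed genes (ABCB1, ABCB4, ABCB11, ABCC2, ABCG2, ABCG5 and ABCG8), 6 were compared. Past 4-fold were 5 toward HepG2 and 0 toward SKHEP1, where the shares over all genes were 13.0% and 16.5%. The median log2 ratio of the group was 5.79 against -0.03 for all genes. ABCB1, the multidrug exporter P-glycoprotein, was at 44.9 TPM (2237 counts) in HepG2 and 1.29 TPM (62 counts) in SKHEP1, 32.9-fold higher in HepG2 (25.5 to 43.0). ABCB4, which flips phosphatidylcholine into bile, was at 10.9 TPM (457 counts) in HepG2 and 0 counts in SKHEP1. By the lower limit of the ratio interval ABCB4 was at least 112-fold higher in HepG2. ABCC2, or MRP2, the canalicular exporter of bilirubin glucuronides, was the exception within 4-fold, with 77.6 TPM (5649 counts) in HepG2 and 31.2 TPM (1996 counts) in SKHEP1, 2.58-fold higher in HepG2 (2.45 to 2.71). ABCC2 was the most abundant ABCC member in SKHEP1, where it gave 34.2% of the summed ABCC TPM. ABCB11, the bile salt export pump, had 0 counts in both lines. The upper limits of its exact Poisson intervals were 0.166 CPM in HepG2 and 0.183 CPM in SKHEP1. The hepatocyte marker levels given above differ between the lines in the same direction as these exporters, and their part in the result was not tested.

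Among the sinusoidal and other ABCC exporters, most were higher in HepG2 and ABCC4 was higher in SKHEP1. Of 12 ABCC genes, 8 were compared, 3 were past 4-fold toward HepG2, 5 lay within 4-fold and 0 were past it toward SKHEP1, where the shares over all genes were 13.0%, 70.5% and 16.5% in that order. ABCC3, or MRP3, a sinusoidal exporter of glucuronides and bile salts, was at 34.6 TPM (1338 counts) in HepG2 and 1.76 TPM (46 counts) in SKHEP1, 26.5-fold higher in HepG2 (19.8 to 36.4). ABCC6, whose loss causes the calcification disorder pseudoxanthoma elasticum, had 86.0 TPM (2174 counts) in HepG2 against 0.45 TPM (3 counts) in SKHEP1, a ratio of scaled counts of 660 (226 to 3203), and of TPM of 191. Its level is uncertain, since the near-identical pseudogenes ABCC6P1 and ABCC6P2 were given 1244 and 157 counts in HepG2 and 2 and 3 counts in SKHEP1, and the authors' estimation divides shared reads among them. ABCC11, an exporter of lipophilic anions, had 54 counts in HepG2 against 3 in SKHEP1, a ratio of 16.4 (5.32 to 82.0), and of 25.5 by TPM.

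The other ABCC genes that were compared lay within 4-fold. ABCC1, or MRP1, an exporter of glutathione conjugates, was at 36.5 TPM (3096 counts) in HepG2 and 12.4 TPM (992 counts) in SKHEP1, 2.84-fold higher in HepG2 (2.65 to 3.06). ABCC10 was 1.92-fold higher in HepG2 (1.68 to 2.20), with 669 counts in HepG2 against 317 in SKHEP1. ABCC5, an exporter of cyclic nucleotides, was 1.65-fold higher in HepG2 (1.47 to 1.86), with 779 counts in HepG2 against 430 in SKHEP1. ABCC4, or MRP4, a sinusoidal exporter of cyclic nucleotides and bile salts, went the other way, with 9.53 TPM (681 counts) in HepG2 and 24.1 TPM (1621 counts) in SKHEP1, 2.61-fold higher in SKHEP1 (2.39 to 2.86). The multidrug group was ABCB1, ABCC1 to ABCC5, ABCC10, ABCC11 and ABCG2. Of these 9, 4 were at least 4-fold higher in HepG2 and 5 lay within 4-fold, where the shares over all genes were 13.0% and 70.5%. ABCC4 alone had a ratio under 1, as did 7877 of all 15436 genes compared. The sulfonylurea receptors ABCC8 and ABCC9, which regulate ATP-sensitive potassium channels, had 0 counts in HepG2, with 0 counts for ABCC8 and 5 for ABCC9 in SKHEP1. ABCC12 and the pseudogene ABCC13 had 0 counts in both lines.

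Subfamily ABCA, which moves lipids, was the subfamily with most members on the SKHEP1 side. Of 12 genes, 7 were compared, 3 were past 4-fold toward SKHEP1, 0 toward HepG2, and the median log2 ratio was -0.76. Over all genes 16.5% were past 4-fold toward SKHEP1 and 13.0% toward HepG2, at a median of -0.03. ABCA1, which loads cholesterol and phospholipid onto apolipoprotein A-I, was the most abundant member in both lines, at 23.4 TPM (3428 counts) in HepG2 and 12.5 TPM (1589 counts) in SKHEP1, 1.97-fold higher in HepG2 (1.85 to 2.09). ABCA3, which fills the lamellar bodies of lung cells with surfactant lipid, was at 0.84 TPM (18 counts) in HepG2 and 5.32 TPM (316 counts) in SKHEP1, 19.3-fold higher in SKHEP1 by scaled counts (12.0 to 32.9). By TPM the gap for ABCA3 was smaller, at a HepG2 over SKHEP1 ratio of 0.158, since TPM divides by length and the estimated isoform-weighted length was 1687 bases in HepG2 and 4857 in SKHEP1. ABCA12, the lipid transporter of the skin barrier, had 6 counts in HepG2 against 47 in SKHEP1, 8.60-fold higher in SKHEP1 (3.67 to 24.6), but its TPM values of 0.24 in HepG2 and 0.41 in SKHEP1 lay within 4-fold and their intervals overlapped. ABCA10 had 1 count in HepG2 and 21 in SKHEP1, a ratio in favour of SKHEP1 of 23.1 on these counts (3.71 to 953). With the floor of 3 counts that the 4-fold call uses, ABCA10 was 7.69-fold higher in SKHEP1.

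The other ABCA genes were within 4-fold or hardly detected. ABCA2, a lysosomal lipid transporter, had 153 counts in HepG2 against 236 in SKHEP1, 1.69-fold higher in SKHEP1 (1.38 to 2.09). ABCA5 had 292 counts in HepG2 against 328 in SKHEP1, 1.23-fold higher in SKHEP1 (1.05 to 1.45). ABCA7, a phospholipid transporter linked to Alzheimer's disease, had 64 counts in HepG2 against 27 in SKHEP1, 2.16-fold higher in HepG2 (1.36 to 3.52), and by TPM the ratio was 4.60. The retinal transporter ABCA4 had 7 counts in HepG2 against 2 in SKHEP1, ABCA6 had 4 in HepG2 against 3 in SKHEP1, and ABCA8 had 1 count in each line. ABCA9 had 1 count in HepG2 and 0 in SKHEP1, and ABCA13 had 0 in HepG2 against 4 in SKHEP1.

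The 250 bases before the starts of ABCA1 and ABCA3 are shown as members expressed in both lines and on the SKHEP1 side, with ABCB6, which was on the HepG2 side. All are on the minus strand of GRCh38.p14 in RefSeq, at chr9:104928156-104928405 for ABCA1, chr16:2340729-2340978 for ABCA3 and chr2:219218959-219219208 for ABCB6. Capitals mark the GC box GGGCGG, the E-box CACGTG and the TATA box TATAAA, on either strand.
ABCA1: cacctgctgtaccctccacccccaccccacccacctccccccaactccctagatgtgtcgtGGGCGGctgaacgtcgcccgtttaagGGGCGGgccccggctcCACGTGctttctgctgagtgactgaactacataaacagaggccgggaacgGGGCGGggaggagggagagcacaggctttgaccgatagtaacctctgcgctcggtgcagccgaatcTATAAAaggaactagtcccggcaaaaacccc
ABCA3: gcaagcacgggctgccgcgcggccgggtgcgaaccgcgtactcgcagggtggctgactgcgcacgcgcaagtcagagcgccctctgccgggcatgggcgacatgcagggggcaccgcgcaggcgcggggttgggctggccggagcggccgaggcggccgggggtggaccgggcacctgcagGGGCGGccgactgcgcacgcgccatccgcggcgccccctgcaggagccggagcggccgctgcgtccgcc
ABCB6: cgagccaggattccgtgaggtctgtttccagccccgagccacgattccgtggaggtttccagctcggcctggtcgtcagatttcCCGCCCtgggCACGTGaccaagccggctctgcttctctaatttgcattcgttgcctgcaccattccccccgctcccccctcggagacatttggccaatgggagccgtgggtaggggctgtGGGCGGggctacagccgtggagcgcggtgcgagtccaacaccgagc
The ABCA1 window held 3 GC boxes, 1 E-box and 1 TATA box, the ABCA3 window 1 GC box, and the ABCB6 window 2 GC boxes and 1 E-box. In all 35116 windows, GGGCGG was found in 42.6%, CACGTG in 6.34% and TATAAA in 10.7%. Among the 53 windows of ABC members, 25, 9 and 6 held these motifs in that order. Within the 4 sequences shown, 0 matches overlapped another motif searched.

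Within subfamily ABCB, 7 of 9 genes were compared. Past 4-fold were 3 toward HepG2 (ABCB1 and ABCB4, given above, and ABCB6) and 1 toward SKHEP1 (ABCB9). Over all genes these shares were 13.0% and 16.5%. The mitochondrial members ABCB8 and ABCB10 differed in opposite directions by less. ABCB6, a porphyrin transporter that carries the Lan blood group, was at 81.9 TPM (2053 counts) in HepG2 and 10.4 TPM (223 counts) in SKHEP1, 8.39-fold higher in HepG2 (7.30 to 9.67). ABCB9, a lysosomal peptide transporter related to TAP1 and TAP2, was at 3.92 TPM (151 counts) in HepG2 and 71.1 TPM (1082 counts) in SKHEP1, 7.87-fold higher in SKHEP1 by scaled counts (6.63 to 9.39). ABCB9 was the most abundant ABCB member in SKHEP1, with 45.7% of the summed ABCB TPM, and ABCB6 in HepG2, with 40.3%. Of the 3 mitochondrial genes none was past 4-fold, where 70.5% of all genes compared lay within 4-fold. ABCB8 had 419 counts in HepG2 against 768 in SKHEP1, 2.01-fold higher in SKHEP1 (1.78 to 2.27). ABCB10, an inner-membrane transporter linked to heme synthesis, had 1622 counts in HepG2 against 785 in SKHEP1, 1.88-fold higher in HepG2 (1.73 to 2.05). ABCB5 had 0 counts in both lines.

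The peroxisomal and lysosomal members of subfamily ABCD all had ratios above 1 where they were compared (3 of 4 genes). Of all 15436 genes compared, 7559 had a ratio above 1. ABCD3, the abundant peroxisomal membrane protein PMP70, was at 121 TPM (5119 counts) in HepG2 and 43.9 TPM (1583 counts) in SKHEP1, 2.95-fold higher in HepG2 (2.78 to 3.12). ABCD4, which moves cobalamin out of lysosomes, had 652 counts in HepG2 against 294 in SKHEP1, 2.02-fold higher in HepG2 (1.76 to 2.33). ABCD2, a peroxisomal fatty acid transporter, had 0 counts in HepG2 against 5 in SKHEP1.

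The members that work in translation, ABCE1 and the ABCF genes, lay within 2-fold in all 4 cases, as did 51.6% of all genes compared. ABCF1, which acts in translation initiation, led both lines at 171 TPM (5855 counts) in HepG2 and 135 TPM (4140 counts) in SKHEP1, 1.29-fold higher in HepG2 (1.24 to 1.34). It stood in the top 6.75% of genes with 10 counts in HepG2 and the top 8.70% in SKHEP1. ABCE1, which splits ribosomes after termination, was at 120 TPM (5307 counts) in HepG2 and 108 TPM (4161 counts) in SKHEP1, 1.16-fold higher in HepG2 (1.11 to 1.21). ABCF2 was at 74.9 TPM (2529 counts) in HepG2 and 126 TPM (4417 counts) in SKHEP1, 1.92-fold higher in SKHEP1 (1.83 to 2.01). ABCF3 was at 45.6 TPM (1291 counts) in HepG2 and 28.3 TPM (770 counts) in SKHEP1, 1.53-fold higher in HepG2 (1.40 to 1.67). In the order of TPM, ABCD3 and ABCE1 came next after ABCF1 in HepG2 with overlapping intervals, whereas in SKHEP1 ABCF2, ABCE1 and ABCB9 followed ABCF1 with intervals that did not overlap.

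Summed over each subfamily, ABCG, ABCC and ABCD levels were higher in HepG2, while ABCF, ABCE and ABCA levels were close. The summed TPM of all 46 genes was 1129 in HepG2 against 744 in SKHEP1. Subfamily ABCC summed to 274 TPM in HepG2 against 91.2 TPM in SKHEP1, a ratio of 3.01, and without the uncertain ABCC6 to 188 TPM in HepG2 against 90.8 TPM in SKHEP1, a ratio of 2.07. ABCD summed to 174 TPM in HepG2 against 65.3 TPM in SKHEP1, a ratio of 2.66, of which ABCD3 gave 69.8% in HepG2 and 67.2% in SKHEP1. ABCG summed to 30.3 TPM in HepG2 against 0.79 TPM in SKHEP1, a ratio of 38.3. The SKHEP1 sum rests on 42 counts, and with CPM in place of TPM the ratio was 24.2. The translation genes of ABCF summed to 292 TPM in HepG2 and 289 TPM in SKHEP1, which was 25.8% of all ABC TPM in HepG2 and 38.8% in SKHEP1. ABCB sums were 203 TPM in HepG2 and 156 TPM in SKHEP1, with members that differ in opposite directions, and ABCA sums were 36.6 TPM in HepG2 and 34.6 TPM in SKHEP1.

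**Figure D3:**
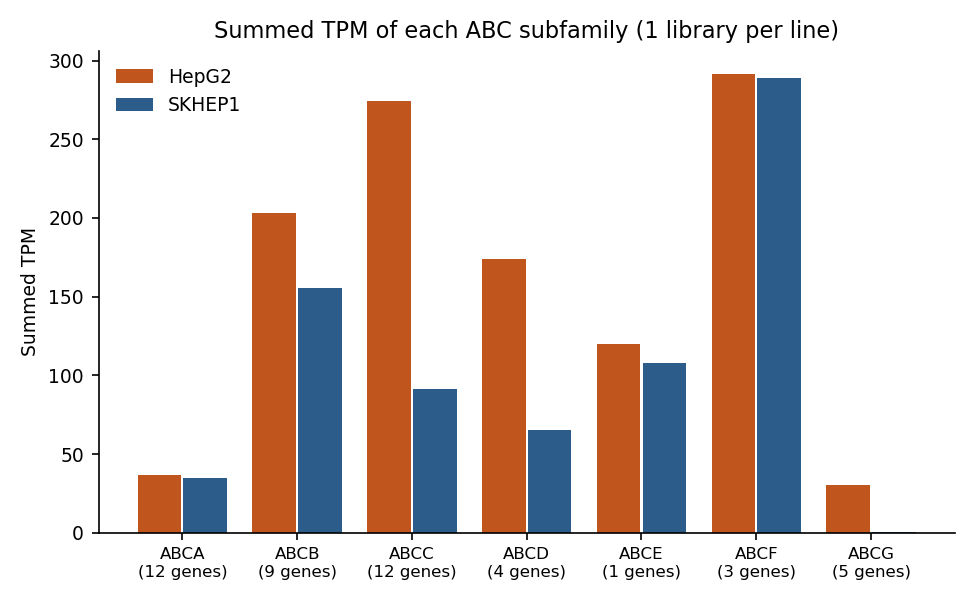
Summed TPM of all listed members of each ABC subfamily, 1 library per line, with HepG2 left of SKHEP1 in each pair and no error bars because neither line has a replicate. The ABCC pair (274 and 91.2) and the ABCG pair (30.3 and 0.79) stand apart, and the ABCF pair (292 and 289) is nearly level.

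The isoform-weighted gene length, a readout that depends on which transcripts the authors' estimation assigned reads to, differed for a few members. Of 20 ABC genes with at least 100 counts in both lines, 3 had a length at least 25% greater in HepG2 and 0 had one at least 25% greater in SKHEP1. Over all 9193 such genes the shares were 2.08% for HepG2 and 2.69% for SKHEP1, together 4.76%. ABCB9 averaged 2864 bases in HepG2 against 1388 in SKHEP1, a ratio of 2.06, and the table lists 20 transcripts for it. ABCA2 averaged 4995 bases in HepG2 against 3230 in SKHEP1, a ratio of 1.55 over 23 listed transcripts. ABCC5 averaged 4980 bases in HepG2 against 3740 in SKHEP1, a ratio of 1.33 over 13 listed transcripts. ABCC10, at 2895 bases in HepG2 and 2318 in SKHEP1, lay just under the limit. For these genes the TPM and scaled-count ratios differ, as for ABCB9, whose TPM in HepG2 was 0.055 of that in SKHEP1, while its scaled count was 0.127 of it. Lengths carry no counting interval here, since the reads behind each transcript are not in the gene tables.

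**Figure D4:**
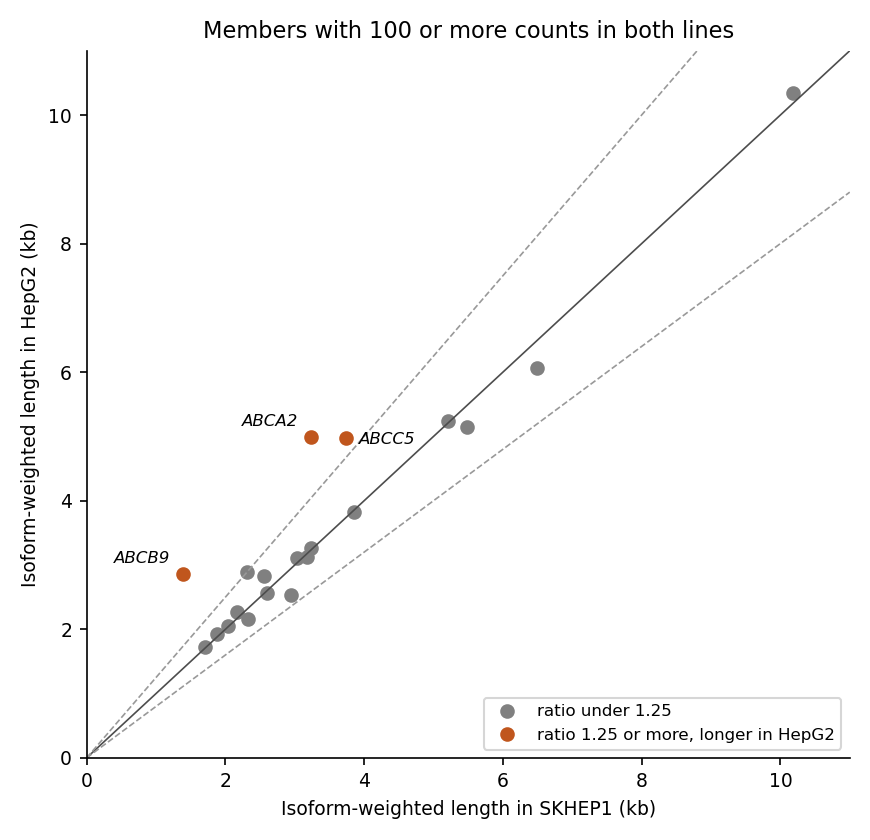
Isoform-weighted length in kilobases, HepG2 on the vertical and SKHEP1 on the horizontal axis, for 20 ABC genes with at least 100 counts in both lines. The solid line marks equal length and dashed lines a 25% greater length in either line. ABCB9, ABCA2 and ABCC5 lie above the upper dashed line.

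Regulators and partners of the transporters were described from lists written from textbook knowledge, with earlier results of these data known. HNF4A and APOA1 are in these lists and also among the hepatocyte markers counted above. Of 107 genes listed, 99 were compared, 30 were past 4-fold toward HepG2 and 5 toward SKHEP1, where the shares over all genes were 13.0% toward HepG2 and 16.5% toward SKHEP1. Among 15 compared regulators of transporter transcription, 9 were past 4-fold toward HepG2 and 0 toward SKHEP1. HNF4A and the bile acid receptor gene NR1H4 had 8689 and 2074 counts in HepG2 and 0 counts each in SKHEP1, at least 2638-fold and 630-fold higher in HepG2. The antioxidant factor NFE2L2 and the sterol factor SREBF2 lay within 4-fold at ratios of 2.39 and 1.21. The liver X receptor genes, chosen after their values were seen because they drive ABCA1 and ABCG5 transcription, went opposite ways. NR1H3 had 358 counts in HepG2 against 27 in SKHEP1, 12.1-fold higher in HepG2, and NR1H2 had 235 in HepG2 against 707 in SKHEP1, 3.30-fold higher in SKHEP1.

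Partners in sterol efflux and bile formation were also mostly on the HepG2 side. Of 14 sterol efflux partners, 7 were past 4-fold toward HepG2 and 7 within 4-fold, where the shares over all genes were 13.0% and 70.5%. The ABCA1 acceptor APOA1 and its companion APOA2 had 37257 and 34305 counts in HepG2 against 0 in SKHEP1, at least 11312-fold and 10416-fold higher in HepG2. The sterol uptake protein gene NPC1L1 had 927 counts in HepG2 against 1 in SKHEP1, a ratio of 844 on these counts (151 to 33386), and a log2 ratio of 8.14 with the floor of 3 counts used for the call. The lipoprotein receptor gene SCARB1 lay within 4-fold at a ratio of 2.79. Of 13 compared bile formation partners, 7 were past 4-fold toward HepG2, 1 toward SKHEP1, and 5 lay within it. MYO5B, a motor that carries transporters to the canaliculus, had 1522 counts in HepG2 against 4 in SKHEP1, 347-fold higher in HepG2 (135 to 1274). The bile acid hydroxylase gene CYP27A1 was 50.5-fold higher in HepG2. The bile acid exporter subunit gene SLC51B, at 238 and 0 counts in HepG2 and SKHEP1, was at least 58.3-fold higher in HepG2. ATP8B1, the canalicular phospholipid flippase gene, had 245 counts in HepG2 against 3486 in SKHEP1, 15.6-fold higher in SKHEP1 (13.7 to 17.9), and its subunit gene TMEM30A and RAB11A were within 4-fold at ratios of 1.04 and 0.59.

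Genes listed as membrane scaffolds split between the lines. PDZK1, SLC9A3R1 and SLC9A3R2 were 52.7-fold, 8.85-fold and 5.16-fold higher in HepG2. Moesin (MSN) had 2 counts in HepG2 against 22621 in SKHEP1. The vault protein gene MVP, also in this list, was 4.26-fold higher in SKHEP1 (3.98 to 4.57). By TPM its HepG2 over SKHEP1 ratio was 0.254, within 4-fold. The moesin relatives EZR and RDX, which link canalicular transporters to actin, were within 4-fold at ratios of 0.56 and 0.53.

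Partners of the organelle and translation members are set against the 70.5% of all compared genes that lay within 4-fold. Of 12 compared mitochondrial iron-sulfur and heme genes, 11 were within 4-fold, among them HMOX1 at a ratio of 0.64 and GLRX5 at 2.89, and the mitochondrial iron importer gene SLC25A37 was 8.84-fold higher in SKHEP1. Of 11 peroxisomal partners, 3 were higher in HepG2 and 8 within 4-fold. All 11 had ratios above 1, as did 7559 of all 15436 genes compared. The peroxisomal oxidation genes ACOX2, EHHADH and ACAA1 were 17.7-fold, 12.9-fold and 7.67-fold higher in HepG2, while HSD17B4 was at a ratio of 2.62. Of 7 cobalamin genes, 6 were within 4-fold, such as MTR at 1.06 and MMADHC at 0.83, and the carrier gene TCN2 was 18.8-fold higher in SKHEP1. All 10 ribosome recycling and translation partners were within 4-fold, among them the termination factors ETF1 at 1.08 and GSPT1 at 3.24. All 6 peptide loading partners were within 4-fold, with CALR at 0.95 and PDIA3 at 1.15, the most abundant of them. The other 4, TAPBP, B2M, TAPBPL and ERAP1, were named after their values were seen and lay at ratios of 0.30, 0.31, 0.34 and 0.43, all toward SKHEP1, and the median log2 ratio of the list was -1.39. The peptide transporters TAP1 and TAP2, ABC proteins under other symbols, had 1039 and 1478 counts in HepG2 and 2226 and 4233 in SKHEP1, 2.35-fold and 3.14-fold higher in SKHEP1, and CFTR had 0 counts in both. A further TAP2 identifier was not used. Of the potassium channel pores that pair with ABCC8 and ABCC9, both named after their values were seen, KCNJ11 had 18 counts in HepG2 against 2 in SKHEP1, and KCNJ8 had 0 in both.

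**Figure D5:**
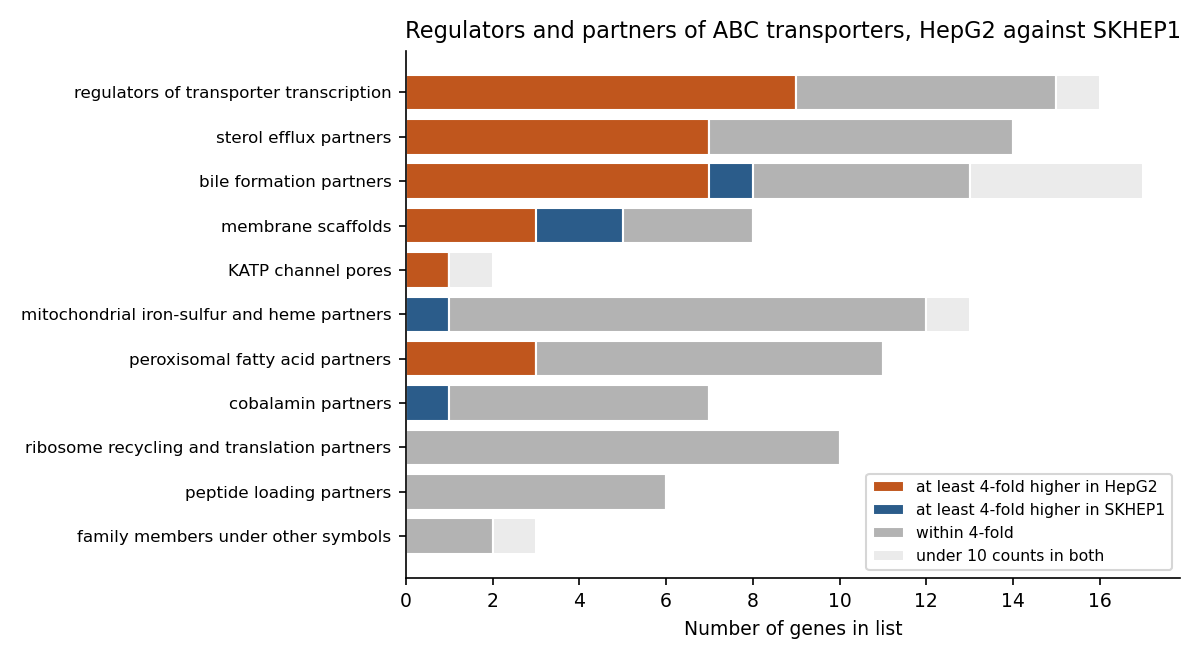
Number of genes in each list of regulators and partners that were past 4-fold toward HepG2, past it toward SKHEP1, within 4-fold, or under 10 counts in both lines. Genes past 4-fold toward HepG2 number 9 of 16 listed regulators, 7 of 14 sterol efflux partners and 7 of 17 bile formation partners.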

How the data were processed

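The deposited tables, 1 per line, hold expected counts (reads per gene as RSEM estimates them), TPM and FPKM, per the file headers, with isoform-weighted and effective lengths. The submitters' processing notes name the tools STAR, RSEM, cutadapt and DESeq2, and hg19 as build. The sources used here do not give versions, the gene annotation or RSEM's strand setting, so overlapping and antisense genes are uncertain. Expected counts were rounded and scaled by TMM effective library size (factors 0.99 for HepG2 and 1.01 for SKHEP1) with edgeR 4.0.16 in R 4.3.3. Genes with at least 10 expected counts in either line were compared at a fold of 4. A count under 3 was replaced by a floor of 3 for the call, while a printed ratio with 1 to 3 counts in a line uses the counts themselves. Level intervals are exact Poisson and ratio intervals exact conditional Clopper-Pearson, at 95%. Python 3.11.15 with scipy 1.17.1 was used. The ratio calculation was tested on simulated counts. Alternatives were total counts, DESeq2 1.42.0 size factors, the deposited TPM or FPKM values, thinning, a 50-count or 1-count minimum, a 2-fold or 8-fold limit, a prior count of 2, unrounded counts, and the interval's nearer bound. Chromosomes, gene types and promoter windows came from RefSeq by symbol. All 46 members matched a gene record and 35 a promoter window. A few members and partner genes are not reported here, though the counts and sums include them. From each partner list up to 3 genes per direction past 4-fold with at least 100 counts were named, with up to 2 abundant genes within 4-fold. Members and lists were chosen with earlier results of these data known. PECAM1 is not analysed here.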

Additional observations from a re-analysis of the deposited data

How the results depend on the processing

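No paired analysis was possible because each line has 1 library. The count of members at least 4-fold higher in HepG2, 10 in the main comparison, ranged from 9 to 15 over its alternatives, with 15 at a 2-fold limit. The count higher in SKHEP1, 4, was 6 at a 2-fold limit, 3 with TPM or FPKM, 2 with a minimum of 50 counts, 2 with an 8-fold limit and 2 when the interval's nearer bound had to pass 4-fold. With TPM or FPKM values, ABCA7 was past 4-fold toward HepG2, while ABCA12 was not past it toward SKHEP1. By subfamily, ABCA members higher in HepG2 numbered 1 with TPM, FPKM or a 2-fold limit, and ABCA members higher in SKHEP1 numbered 1 with a minimum of 50 counts or by the nearer bound. ABCB members higher in SKHEP1 numbered 2 at 2-fold and 0 at 8-fold. ABCC members numbered 5 higher in HepG2 and 1 higher in SKHEP1 at 2-fold. ABCD members higher in HepG2 numbered 3 at 2-fold and 0 with TPM, FPKM, an 8-fold limit or the nearer bound. Partner genes higher in SKHEP1 numbered 12 at 2-fold. The median log2 ratio of the members was 0.61 with a minimum of 1 count. With CPM in place of TPM the HepG2 over SKHEP1 ratio of sums was 1.41 for ABCA, 1.91 for ABCB, 2.43 for ABCC, 2.93 for ABCD, 1.16 for ABCE, 0.94 for ABCF, 24.2 for ABCG and 1.63 for all members, so the direction for ABCF, close to 1 throughout, depends on the unit. With a minimum of 1000 counts in both lines, 0 members had a length at least 25% greater in either line, against 3 with a minimum of 100. ABCB9, ABCA2 and ABCC5 had fewer than 1000 counts in at least 1 line and were left out. This setting therefore cannot tell whether their length differences hold. With a minimum of 50 counts, ABCA12 and ABCA10 were no longer compared, at 47 and 21 counts in SKHEP1 and fewer in HepG2. The cause of the other changes was not tested. A count of 0 had an upper limit of 3.69 counts by the exact Poisson interval.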

Other observations

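Of the neighbouring members, besides ABCG5 and ABCG8, ABCB4 and ABCB1 lie next to each other on chromosome 7 with no other protein-coding gene between their starts, and both were at least 4-fold higher in HepG2. On chromosome 16, ABCC1 and ABCC6 are adjacent, with log2 ratios of 1.51 and 9.37, HepG2 over SKHEP1. Also on chromosome 16, ABCC11 had 54 counts in HepG2 and 3 in SKHEP1, while its neighbour ABCC12 had 0 in both. On chromosome 17 the run of ABCA8, ABCA9, ABCA6, ABCA10 and ABCA5 held 3 genes under 10 counts in both lines, ABCA10 with 1 count in HepG2 and 21 in SKHEP1, and ABCA5 with 292 in HepG2 and 328 in SKHEP1.

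Of 15 pseudogene or antisense rows named after family members, 12 had 0 counts in both lines. ABCA11P, a pseudogene, had 177 counts in HepG2 and 91 in SKHEP1, 1.77-fold higher in HepG2. In the 250 bases before their starts, the 53 member windows had a median GC content of 61.6%, and all 35116 RefSeq windows 58.0%. Taking the window with the highest GC for each member, the median was 46.2% for 8 members under 10 counts in both lines, 68.0% for 16 within 4-fold, 64.4% for 7 higher in HepG2 and 62.2% for 4 higher in SKHEP1. These values were not tested.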
